A study of Triticum aestivum with 4 samples.

Results

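Heat in the progeny of heat-primed plants was described by setting the array PH, from heated leaves, against the array PC, from leaves without heat. These are 2 of the 4 samples of the series, chosen by their labels, with 1 array for each group. Flag leaves of cv. Yangmai 16, a commercial winter bread wheat, were sampled. The seed parents of both PC and PH had gone through heat priming 3 times. Before anthesis they spent 2 days at 32/28 °C (day/night) as plants of 7 leaves and 2 more when 9 leaves were out, and later, from day 10 after anthesis, 7 days at 34/30 °C. Their progeny, PH and PC, then grew alike until day 10 after anthesis. From that day PH plants had 6 days of 34/30 °C and PC plants 26/22 °C, in separate growth chambers, so heat and chamber cannot be told apart. The arrays NC and NH came from progeny of unprimed parents, without and with the same heat, and stand beside PC and PH only for comparison. For the number of plants behind a sample, nothing is given in the sources used here.

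The flag leaf is the last leaf of the wheat stem and feeds the filling grain. Its carbon comes from the light reactions of the thylakoid membrane and from the Calvin cycle, in which Rubisco fixes carbon dioxide and other enzymes rebuild its substrate. High temperature after anthesis is known to lower leaf photosynthesis and to hasten leaf senescence, and plants meet it with chaperones, detoxifying enzymes and other protective proteins.

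Each value below is the intensity of a probe set, a group of array probes for one transcript, as deposited. Intensities under 12.3, the median of all values on the 4 arrays, were raised to that floor, and differences are log2 PH minus log2 PC. A probe set or gene was measured when it lay above the floor on PC or PH. It is said to have risen or fallen when the difference was at least 1 in size, a 2-fold change. With 1 array per group no value has a replicate error and no comparison has a p-value. For scale, log2 PC minus log2 NC, between the arrays without heat, had an SD of 0.35 over the 601 measured genes with a symbol. In whole leaves, fewer cells of a type and less RNA per cell cannot be told apart, and apart from the summed levels of marker lists, intensities of different probe sets are not combined or compared.

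Of 61115 probe sets, 32454 were measured. On PC 30642 lay above the floor and on PH 30385. Of those measured, 3145 rose from PC to PH (9.69%) and 3241 fell (9.99%), 19.7% in either direction. Farther out falls outnumbered rises: 710 probe sets were at least 4-fold higher and 1055 lower, 251 and 399 passed 8-fold, and 110 and 154 passed 16-fold. Beyond 64-fold the order turned, with 20 higher and 13 lower. The middle of the distribution lay close to 0, with a median of 0.04 and quartiles of -0.36 and 0.46.

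**Figure D1:**
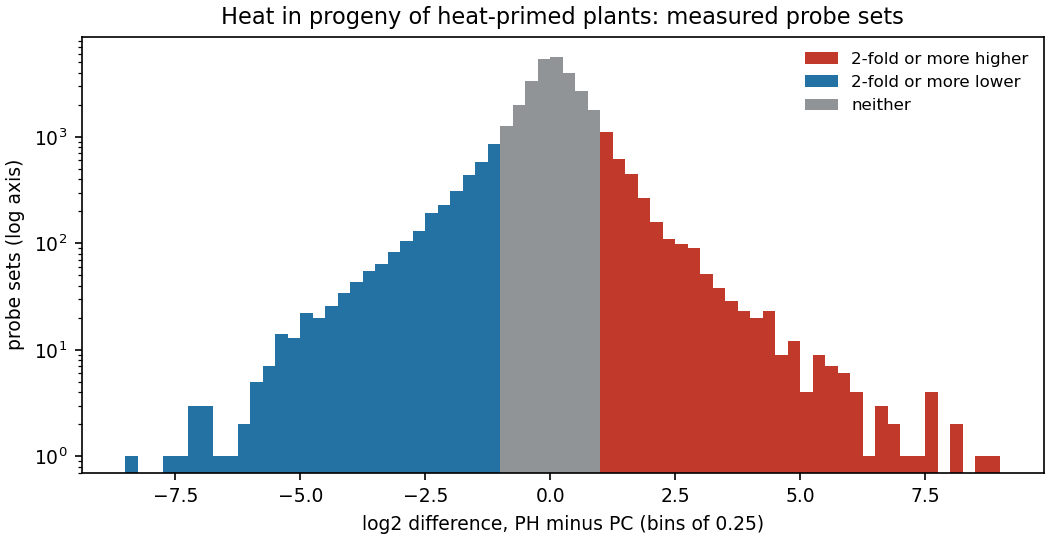
Number of measured probe sets (log axis) by log2 PH minus PC, in bins of 0.25, coloured by whether they passed 2-fold. The lower tail holds 1055 probe sets beyond 4-fold and the upper tail 710, while the single highest value, 8.78, lies farther from 0 than the lowest, -8.36.

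Most of these probe sets have no gene symbol. Among the 31546 measured without one, 3051 rose and 3094 fell. The widest rises were those of Ta.5810.1.S1_at, from 8.42 on PC to 5391 on PH, and Ta.19202.1.S1_at, from 6.47 to 4760. Both lay below the floor on PC, so they rose at least 439-fold and 388-fold. In the other direction, Ta.28058.1.S1_at went from 4024 to 11.4, a fall of at least 328-fold, and Ta.975.2.S1_at from 2505 to 14.5, a fall of 173-fold. All 4 moved the same way in progeny of unprimed plants, at 8.32, 8.57, -7.99 and -7.16 on the log2 scale. Which genes these probe sets stand for was not analysed here.

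The share of probe sets past 2-fold depended on brightness. With the mean taken over log2 PC and log2 PH, 10.3% of the 12401 probe sets under an intensity of 32 passed, 23.3% of the 10920 between 32 and 128, 28.1% of 6304 between 128 and 512, and 28.6% of 2358 between 512 and 2048. Above 2048 it was 26.1% of 471. The floor limits what dim probe sets can show. Rises were the more frequent between 32 and 128 (11.9% against 11.4%) and between 128 and 512 (14.4% against 13.6%), and falls between 512 and 2048 (16% against 12.6%) and above (14.2% against 11.9%). Of the 1812 probe sets at or below the floor on PC, 317 rose, and of the 2069 at or below it on PH, 542 fell. For these the change is a lower bound. By the prefix of the ID, 22.7% of the 20548 measured probe sets beginning with Ta passed 2-fold and 14.5% of the 11906 beginning with TaAffx. By suffix, the 4728 of type _x_at, which can match sequences of other genes, held more falls (13.4%) than rises (8.61%), and the 22849 without such a suffix 8.97% and 9.59%.

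**Figure D2:**
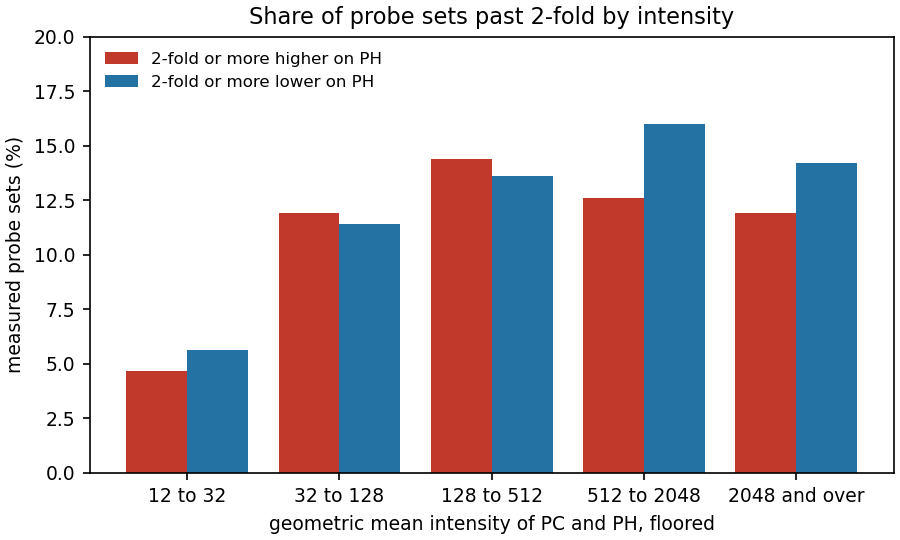
Percentage of measured probe sets that were 2-fold or more higher or lower on PH, by the geometric mean of the floored PC and PH intensities. The dimmest class has the lowest shares, 4.68% higher and 5.62% lower, and falls exceed rises from an intensity of 512 upward.

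Of 771 genes with a symbol, 601 were measured, each by its brightest probe set; 66 (11%) rose and 105 (17.5%) fell, with a median difference of -0.14. Of 101 genes that also have a functional name, 75 were measured, of which 3 rose and 21 fell (median -0.34). The other 26 lay below the floor on both arrays, among them HGGT and IVR1. The 3 that rose were XIP-I, avnla and PCS1. With a higher floor, the 75th percentile (53.6), the differences of avnla (0.44), PCS1 (0.41), Tubb5 (-0.92) and wcH2B-6 (-0.34) were inside 2-fold. The genes that fell were spread over carbon metabolism, methyl transfer, detoxification, the cytoskeleton, chromatin, the ribosome, transcription and defence. Each is given below with its group.

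**Figure D3:**
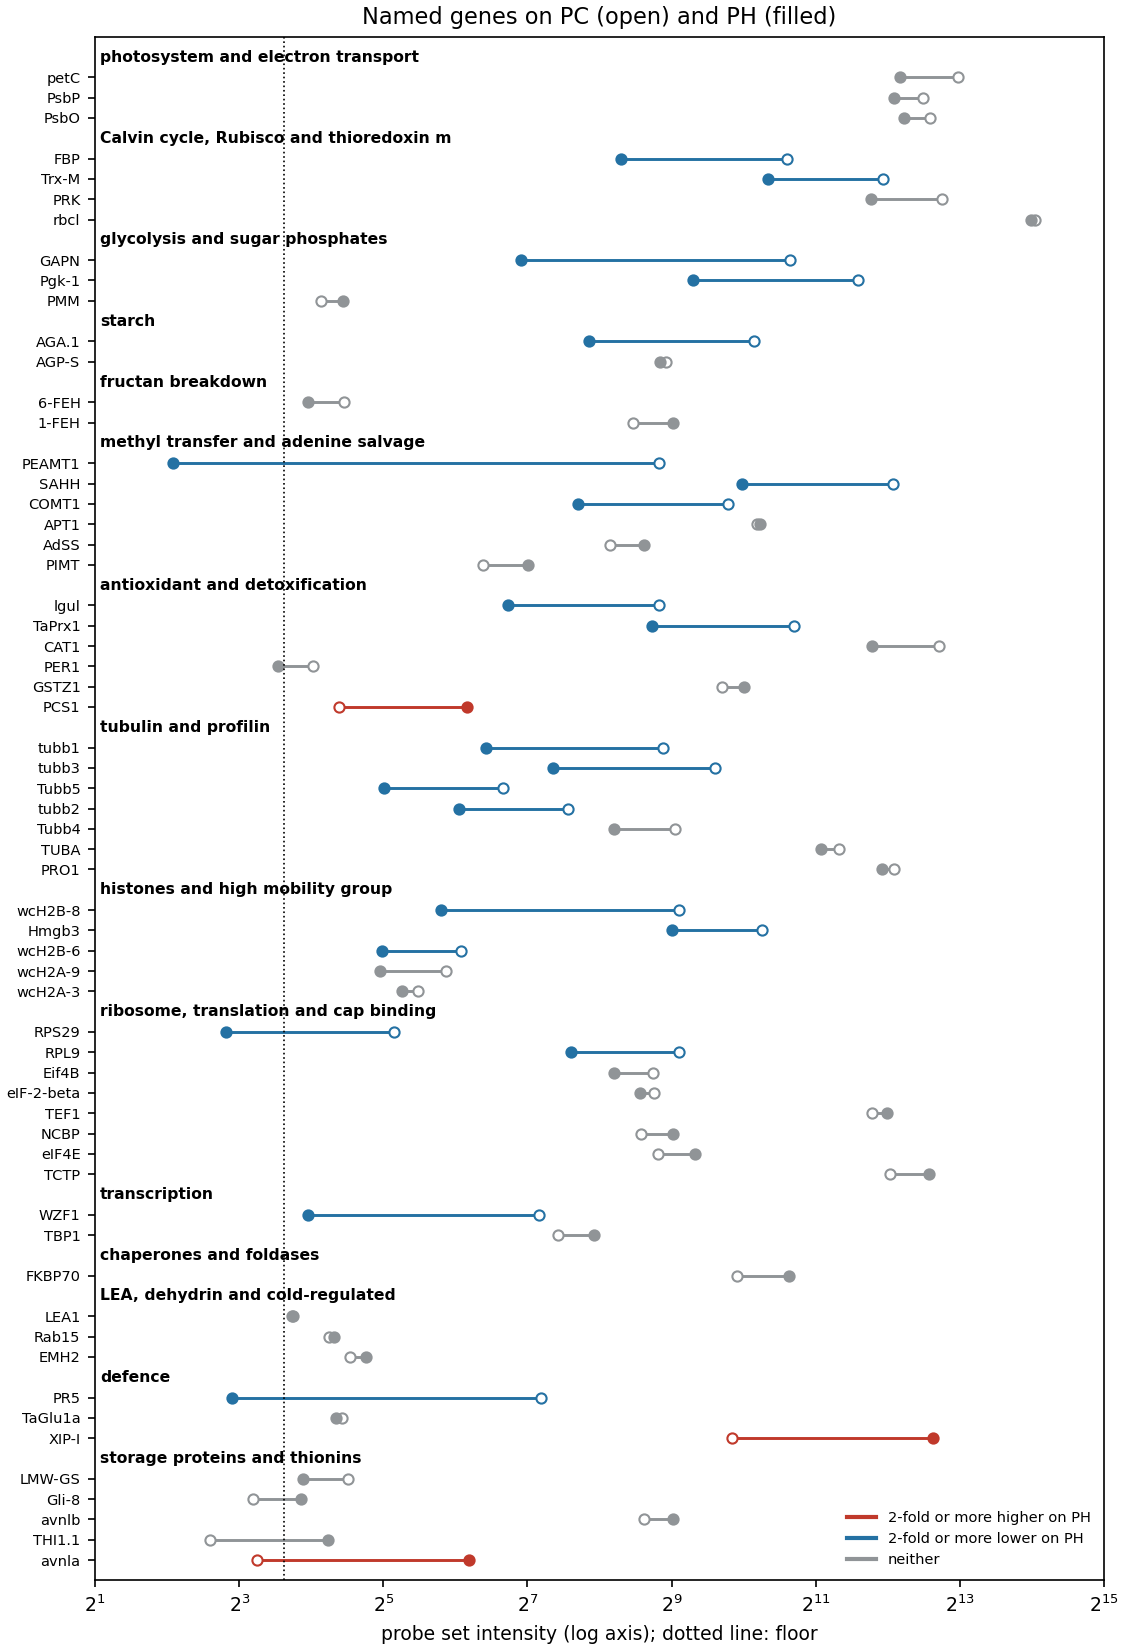
Deposited intensity (log axis) on PC (open circles) and PH (filled circles) of the measured genes of 15 groups, 1 line per gene, coloured by whether they passed 2-fold; the dotted line is the floor of 12.3. Lines that run to the left, such as those of GAPN (1598 to 119.8) and wcH2B-8 (548 to 55.9), prevail among coloured genes, and those of PCS1, XIP-I and avnla run to the right.

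Of the genes of the light reactions, 0 of 3 fell or rose 2-fold, beside 28.5% in either direction among all measured genes with a symbol. The gene petC, which codes for the Rieske iron-sulfur protein of the cytochrome b6/f complex, stood at 8082 on PC and 4623 on PH. Its difference of -0.81 was the widest of the 3, each read by its brightest probe set. PsbP and PsbO (LOC543290 and LOC543291), extrinsic proteins that hold the oxygen-evolving complex of photosystem II together, went from 5727 to 4330 and from 6165 to 4793. Their differences of -0.40 and -0.36 were near 0.35, the SD over all measured genes between the arrays without heat. PsbP itself stood at 5590 on NC, near its level on PC. A second probe set of PsbP went from 2795 to 1540, a difference of -0.86. In progeny of unprimed plants the same genes had -1.75, -0.98 and -0.67.

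In the Calvin cycle, fructose bisphosphatase fell while phosphoribulokinase stayed just inside 2-fold. FBP, which removes a phosphate from fructose bisphosphate, went from 1557 to 316, a fall of 4.93-fold. PRK (LOC543283), which makes the substrate of Rubisco, went from 6877 to 3493, with a difference of -0.98. Trx-M (LOC542973), thioredoxin m, a small protein that passes electrons to enzymes of the chloroplast, fell 3-fold, from 3899 to 1300. In unprimed progeny the 3 genes had -3.92, -2.21 and -2.51, each farther from 0 than here.

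Rubisco's large subunit, rbcl (LOC100049018), was measured by 10 of its 28 probe sets. The brightest had 16875 on PC and 16320 on PH, the highest value on either array, and whether that signal was saturated was not tested. Another at 15936 and 15239 had -0.06. The 8 dimmer ones, between 23.4 and 142.9 on PC, had differences from -2.25 to -0.15. Only TaAffx.128414.72.S1_at passed 2-fold, from 78.0 to 16.4. The probe sets of this gene thus did not give 1 value.

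Of 3 measured genes of glycolysis and sugar phosphates, 2 fell, beside 17.5% of all measured genes with a symbol. GAPN, a glyceraldehyde-3-phosphate dehydrogenase that yields NADPH in the cytosol, went from 1598 to 119.8, a fall of 13.3-fold. Pgk-1 (LOC543496), phosphoglycerate kinase, went from 3085 to 627, a fall of 4.92-fold. PMM (LOC780594), phosphomannomutase, lay close to the floor, at 17.6 and 21.6. The phosphofructokinase gene PFK was below the floor on both arrays.

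Starch synthesis starts with ADP-glucose pyrophosphorylase, and its subunit genes differed. AGA.1 (LOC543278) fell 4.90-fold, from 1128 to 230, and its other measured probe set had -1.39. AGP-S (LOC543299), the small subunit, stood at 486 and 458, a difference of -0.08. Of the fructan exohydrolases, which release fructose from stored fructan, 1-FEH (LOC543441) went from 353 to 518 (0.55) and 6-FEH (LOC780575) from 21.8 to 15.4 (-0.50). Thus 0 of 2 passed, beside 28.5% in either direction among all measured genes with a symbol. The starch genes GBSS-I, a granule-bound starch synthase, and BMY1 were below the floor.

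The group of methyl transfer and adenine salvage had 3 falls among 6 genes and no rise, where 17.5% of all measured genes with a symbol fell and 11% rose. Its median of -1.02 was -0.99 after median scaling and -0.95 after quantile normalization, inside 2-fold. SAHH, S-adenosylhomocysteine hydrolase, clears the by-product of methylation reactions. It went from 4300 to 1012, a fall of 4.25-fold, and its other probe set had -2.36. COMT1 (LOC543449), a caffeic acid O-methyltransferase of lignin synthesis, fell from 881 to 209. PEAMT1 (LOC543067), which methylates phosphoethanolamine on the way to phosphocholine, went from 453 to 4.24, a fall of at least 36.9-fold. The other members were APT1, adenine phosphoribosyltransferase, at 1162 and 1200, AdSS, adenylosuccinate synthetase, at 282 and 391.5, and PIMT, a methyltransferase that repairs damaged aspartate residues, at 83.7 and 128. All 3 falls were read by probe sets of the types _a_at and _x_at, which are not specific to 1 transcript, and without them the median of the 3 genes left was 0.47. SAHH and COMT1 had -1.29 and -1.30 in unprimed progeny, against -2.09 and -2.08 here.

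Among 6 measured genes of antioxidant and detoxification enzymes, 2 fell and 1 rose, beside 17.5% and 11% of all measured genes, with a median of -0.67. The gene lgul (LOC542984), glyoxalase I, which removes methylglyoxal, went from 452 to 106 and fell 4.26-fold; its second probe set had -3.72. TaPrx1 (LOC606328) fell 3.91-fold, from 1657 to 424, and its 4 measured probe sets had differences from -2.51 to -1.92. PCS1 (LOC542834), phytochelatin synthase, which makes metal-binding peptides, rose 3.40-fold from 21.0 to 71.2. CAT1, catalase, went from 6698 to 3527 and stayed just inside 2-fold at -0.93; its second probe set, at -1.16, was past it. GSTZ1, a glutathione S-transferase, stood at 833 and 1030, and PER1 was at 16.3 on PC and below the floor on PH.

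Of 5 beta-tubulins, which build the microtubules, 4 fell. The gene tubb1 (LOC543257) fell from 470 to 86.1, tubb3 (LOC543473) from 774 to 164, Tubb5 (LOC543261) from 101.4 to 32.1 and tubb2 (LOC543258) from 189 to 66.3. Their falls ran from 2.84-fold in tubb2 to 5.46-fold in tubb1. Of the 4 measured probe sets of Tubb5, 2 fell and 2 stayed inside 2-fold, at -0.73 and -0.53. Tubb4 (LOC543260) had -0.85, from 528 to 293. The alpha-tubulin TUBA, at 2569 and 2151, and the actin-binding profilin PRO1, at 4344 and 3865, had -0.26 and -0.17. The whole group of 7 had 4 falls, beside 17.5% of all measured genes, and a median of -1.51, which was -0.92 with the floor at 53.6. In unprimed progeny it also had 4 falls, with a median of -1.05.

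Histones package DNA and are made mostly in dividing cells. The H2B gene wcH2B-8 (LOC543184) fell 9.81-fold, from 548 to 55.9. Of its 4 measured probe sets 3 fell, with differences from -3.29 to -2.75, and the dimmest stood at 24.1 and 22.2. The H2B gene wcH2B-6 went from 67.8 to 31.7 (-1.10) and Hmgb3, a high mobility group protein that bends DNA, from 1219 to 512 (-1.25), both just past 2-fold. The H2A genes wcH2A-9, at 58.3 and 31.0, and wcH2A-3, at 44.6 and 38.4, did not pass, which left 3 falls of 5 and a median of -1.10, beside 17.5% falling among all measured genes. Only wcH2A-2 was below the floor.

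Genes of translation had 2 falls among 8, no rise and a median of 0.01, a share of falls near the 17.5% of all measured genes. RPL9 (LOC543077), a protein of the large ribosomal subunit, fell from 548 to 194, 2.83-fold, and RPS29 (LOC606342), of the small subunit, from 35.5 to 7.05, at least 2.89-fold. A second probe set of RPS29 had 0.07, so the fall rests on one of them. The cap-binding factor eIF4E went from 449 to 644, the cap-binding protein NCBP from 383 to 521 and TCTP, a translationally controlled protein, from 4205 to 6111. Their differences lay between 0.44 and 0.54. Eif4B had -0.54, eIF-2-beta -0.19 and TEF1 0.20.

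WZF1 (LOC543182), a zinc finger protein, fell 9.28-fold, from 143 on PC to 15.4 on PH, close to the floor. In unprimed progeny it went from 86.2 to 22.7, a difference of -1.92 against -3.21 here. TBP1, the TATA-box binding protein, which general transcription needs, stood at 173 and 242.

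Of 4 measured genes of chaperones and late embryogenesis abundant proteins, 0 passed 2-fold, beside 28.5% of all measured genes, and 3 of the 4 lay near the floor. Here too groups without a call were put together, so the count of 0 follows from that choice. FKBP70 (LOC543314), a peptidyl-prolyl isomerase that helps proteins fold, went from 959 to 1577, a difference of 0.72. For hsp16.9A, a small heat shock protein, PC had 2.07 and PH 2.72, both below the floor, so its response was not measured. LEA1, Rab15 and EMH2, of the late embryogenesis abundant type, lay between 13.3 and 27.2 on both arrays. COR410 and EM were below the floor.

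Of the defence genes, 1 rose and 1 fell among 3 measured, beside 11% and 17.5% of all measured genes with a symbol. XIP-I (LOC542997), an inhibitor of fungal xylanases, went from 916 to 6323 and rose 6.91-fold, and its second probe set had 3.04. PR5 (LOC543292), a thaumatin-like protein, fell from 146 to 7.47, at least 11.9-fold. The beta-glucosidase TaGlu1a (LOC780595) stood at 21.4 and 20.4. On NC it had 53.8 and on NH 15.1, a difference of -1.83 against -0.07 here. WGA2 was below the floor on both arrays.

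Genes of transport, the cell wall, iron uptake, ubiquitin and gibberellin synthesis had 0 of 7 measured past 2-fold, beside 28.5% of all measured genes. These are groups without a call put together, so their count follows from that choice. DMAS1 (LOC100037594), of phytosiderophore synthesis for iron uptake, had the widest difference of the 7, 0.83, at 205 and 365. Its other probe sets had -0.05 and 0.43. LTP3, a lipid transfer protein, went from 1888 to 1229 (-0.62) and XTH, a cell wall enzyme, from 21.6 to 15.6 (-0.47). The proton pump of the plasma membrane, ha1, stood at 3090 and 3456, the cation channel TPC1 at 249.8 and 197, and the ubiquitin-conjugating enzyme UBC1 at 2736 and 2233. GA20ox1d, a gibberellin 20-oxidase, had 16.0 on PC and lay below the floor on PH. GA20ox1a, GA20ox1b and TaALMT1 were below it on both.

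Markers of the leaf were bright on both arrays. The summed intensity of PsbP, PsbO, petC, rbcl and PRK was 43726 on PC and 33559 on PH. Of 5 histone H2A and H2B genes, the markers of dividing cells, 4 were above the floor on both arrays. Their summed intensity was 721 on PC and 160 on PH, of which wcH2B-8 alone gave 548 and 55.9. Markers of grain and anther were mostly at or under the floor. Of 12 storage protein and thionin genes, 2 were above it on PC and 5 on PH, with summed intensities of 462 and 663; Gli-3, Gli-D2-1, GAG56D, Gli-B2-11, THI1.2, THI1.3 and TTHV were below it on both. The avenin-like gene avnla (LOC780582) went from 9.50 on PC to 72.9 on PH, a rise of at least 5.94-fold, where NH had 659. A second probe set of avnla went from 4.11 to 24.7, a difference of 1.01 above the floor, just past 2-fold. The related gene avnlb stood at 394 and 518. LMW-GS stood at 22.8 and 14.7, Gli-8 at 9.15 and 14.4 and THI1.1 at 6.02 and 18.8. Of 7 serpin and amylase inhibitor genes, WMAI-1 was at 19.2 and 17 and Serpin-Z2A at 4.09 and 15.1, with summed intensities over all 7 of 46.0 and 55.7. The anther gene raftin1b stood at 15.5 and 16.8. Whether a trace of grain tissue took part in the rise of avnla was not tested.

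RNA controls moved between PC and PH as well. The ratio of 3' to 5' signal of the ubiquitin control probe sets was 0.750 on PC and 0.992 on PH, beside 0.645 on NC and 0.929 on NH. For sucrose synthase the ratio was 45.2 on PC and 55.1 on PH, beside 50.9 on NC and 60.2 on NH. Its 5' probe set lay below the floor on PC, at 6.11, and on NC, at 5.86. The 24 poly-A controls had a median PH over PC ratio of 0.812 and the 18 hybridization controls one of 0.825. For NH over NC these were 1.89 and 1.03, so the controls moved apart between the pairs of arrays. Their part in the differences above was not tested.

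Genes known by a locus symbol alone made up the extremes of the list; those in this paragraph were named after their values were seen. LOC606323 rose 203-fold, from 43.9 to 8894. LOC100037518 went from 94.1 to 4747 and LOC606307 from 26.5 to 676, read by probe sets whose IDs share a transcript cluster number. LOC542830 rose 49.0-fold, from 59.8 to 2934. Of those that fell, LOC542947 went from 5919 to 31.3, 189-fold, LOC780599 from 997 to 25.1, and LOC543492 from 821 to 7.83, at least 66.9-fold. These 7 genes changed past 2-fold in progeny of unprimed plants too. They are not a full ranking: both measured probe sets of LOC543338, at 5.01 and 5.25, rose more than LOC606307, at 4.67. The 3 measured probe sets of LOC780599 had differences from -5.31 to -2.69.

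Several genes with bright probe sets held their level within 2-fold. LOC543231 had 9696 on PC and 12104 on PH, LOC542853 8021 and 10105, and LOC778410 8145 and 8400. LOC543448 (9632 and 7718), LOC100049048 (9072 and 7797) and LOC732707 (8331 and 6381) had -0.32, -0.22 and -0.38. The functional names TSA (4697 and 2395), cys1 (6461 and 7443), Glc1 (373 and 226), la-17 (62.0 and 80.6) and wci (29.2 and 29.3) belong to measured genes in no group. Of these, TSA at -0.97 was just inside 2-fold, and its second probe set, at -1.14, was past it.

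Of 200 genes with at least 2 measured probe sets, 36 had all of them past 2-fold the same way, 16 up and 20 down. In 40 genes some passed and some did not, and in 123 none passed. The median spread between the highest and the lowest probe set of a gene was 0.34. In 1 gene the calls opposed: LOC543342, named after its values were seen, had 1 probe set at 90.4 and 15 and a second at 37.1 and 77.2. Probe sets of a gene are read from the same RNA and are not replicates. Probe sets specific to 1 transcript were also paired within transcript clusters. Each pair was counted in both orders, from each member in turn. When one had risen, the other member of a pair was higher too in 78.5% of 675 pairings and past 2-fold in 33.8%. When one had fallen, these shares were 80.9% and 37.0% of 848. Over all 7132 pairings of these measured probe sets, again in both orders, both went the same way in 71.5%.

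**Figure D4:**
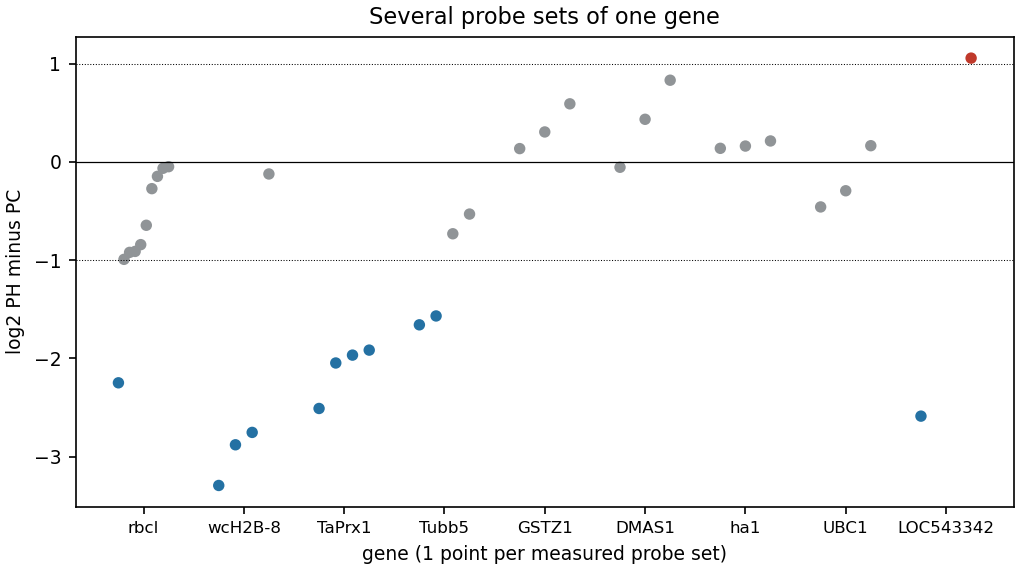
Log2 PH minus PC of each measured probe set of the 8 genes with a functional name and at least 3 such probe sets, and of LOC543342; dotted lines mark 2-fold. The 4 points of TaPrx1 all lie below -1.9, while rbcl and wcH2B-8 each hold points near 0 and points below -2.

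The changes in primed progeny were next set beside those of unprimed progeny, which share no array with them. There 3615 probe sets rose (11.1%) and 3440 fell (10.5%), 21.6% in either direction, and among 605 measured genes with a symbol 88 (14.5%) rose and 111 (18.3%) fell, together 32.9% against 28.5% in primed progeny. Of the 3145 probe sets that rose in primed progeny, 2340 rose in both, which is 74.4% of that list and 64.7% of the unprimed one. Of the 3241 that fell, 2580 fell in both, 79.6% and 75% of the lists. Of the rest, 541 of the risen and 476 of the fallen moved the same way in unprimed progeny by between 0.5 and 1. In 253 and 181 the unprimed difference was under 0.5 in size, and in 11 and 4 it was opposite by at least 0.5.

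By gene, 57 of the 66 that rose also rose in unprimed progeny, and the other 9 were higher there by 0.5 to 1. Of the 105 that fell, 86 fell in both and 12 were lower by 0.5 to 1. The 7 left fell in primed progeny with an unprimed difference under 0.5 in size, and the 5 with the widest falls follow. LOC543090 had 391 on PC and 34.7 on PH but 159 on NC and 115.6 on NH. LOC542826 went from 119 to 7.71, at least 9.70-fold, with 169 on NC and 139 on NH. LOC543422 went from 465 to 97.4, with 347 and 290, LOC100049032 from 78.6 to 24.3, with 79.8 and 57.0, and LOC542781 from 43.2 to 14.6, with 54.2 and 45.8. Each of these 5 rests on 1 array per group, and the difference between seed backgrounds has no test.

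For 2 genes named after their values were seen, the rise was wider in primed progeny and PC stood lower than NC. LOC543197 went from 252 to 2249, against 1404 to 4584 in unprimed progeny, so its level on PH was the lower one although its rise was 3.16 against 1.71 on the log2 scale. LOC542875 went from 19.0 to 133, against 40.6 to 113. Of all 105 genes that fell, 50 had the smaller change in primed progeny, so a narrower fall is no mark of any one gene. Among them were 4 genes of carbon metabolism. GAPN, FBP, Pgk-1 and AGA.1 had 1598, 1557, 3085 and 1128 on PC against 1690, 1692, 3247 and 966 on NC. On PH they had 119.8, 316, 627 and 230 against 36.6, 112, 292 and 117 on NH, so each was the higher on PH.

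**Figure D5:**
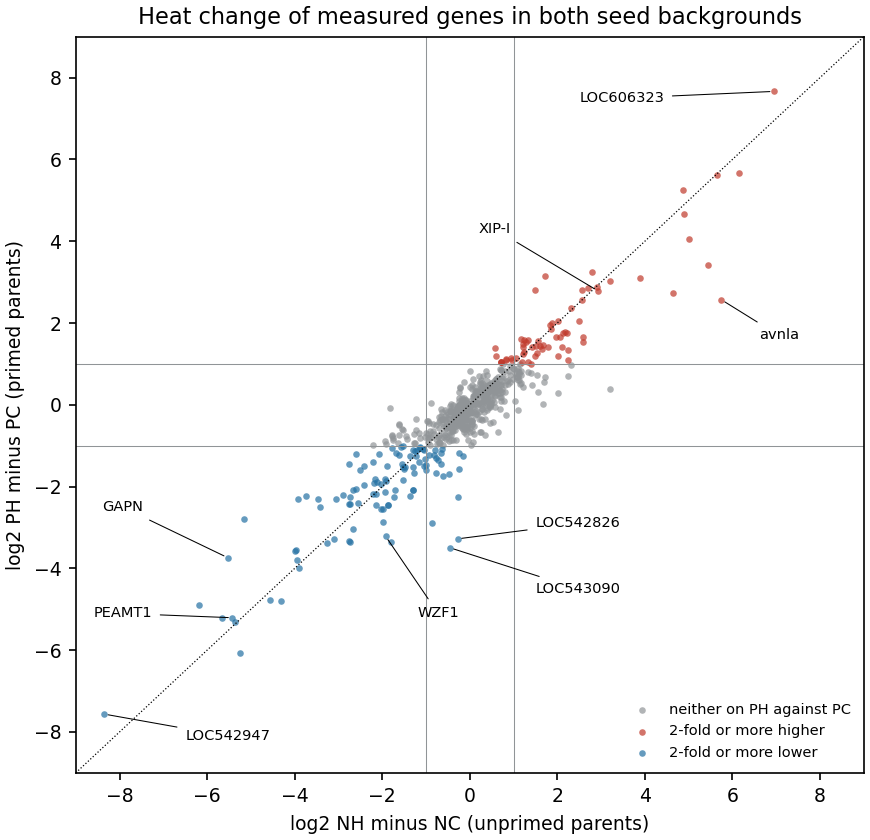
Log2 difference with heat of the 601 measured genes with a symbol in progeny of primed (vertical axis) and unprimed plants (horizontal axis), coloured by the call for PH against PC; grey lines mark 2-fold and the dotted line equal change. Coloured points run along the dotted line, with LOC543090 (-3.50 and -0.46) and LOC542826 (-3.28 and -0.28) below it and avnla (2.57 and 5.75) to its right.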

How the data were processed

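For each sample 6 µg of total RNA went to an Affymetrix wheat array, per the labels' protocols. MAS5 is named, per the submitters' processing notes, with no role stated. The deposited values are intensity on a linear scale, 1 per probe set. For the MAS5 version, scaling and detection calls, nothing is given in the sources used here. From 61290 probe sets, 111 Affymetrix and 64 reporter controls were left out. As floor served the 50th percentile of the remaining values. Gene symbols came from the platform annotation (1273 probe sets, 771 symbols). For 770 the gene ID matched the gene table of IWGSC CS RefSeq v2.1, used for synonyms only. Each gene was read by its probe set with the highest mean log2 over 4 arrays. The 21 groups of 95 genes were set by hand from names, but with earlier results of these data known. Genes were named by a rule: the 15 highest and 15 lowest past 2-fold with a functional name; per group, up to 4 each way and the brightest, and groups of at most 6 whole; the 5 each way with an unprimed difference under 0.5 or opposite; the 5 brightest on either array; genes of at least 3 probe sets with opposed calls (none); and 2 probe sets each way without a symbol. Members and lists were chosen with earlier results of these data known. Python 3.11.15 was used with numpy 2.4.6, pandas 2.3.3 and, for plots, matplotlib 3.10.9. The number of arrays limits the precision.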

Additional observations from a re-analysis of the deposited data

Results flagged for a closer look

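Heated leaves went past 2-fold one way in primed and the other way in unprimed progeny at 5 probe sets, and the difference was not tested. None has a gene symbol, and they were picked by their values. Ta.11519.1.A1_at went from 7.92 on PC to 129.9 on PH but from 449 on NC to 11 on NH, and Ta.11519.1.A1_x_at, of the same cluster, from 15.9 to 137 against 470 to 9.38. Ta.4829.1.S1_at went from 81.4 to 12.9 against 11 to 41.6, Ta.23072.1.S1_at from 155 to 66.4 against 100.3 to 232, and TaAffx.73741.1.S1_at from 19.7 to 54.4 against 36.0 to 8.87.

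Some control probe sets for wheat genes, which are left out of the calls, also differed between PC and PH. Sucrose synthase, which splits sucrose, had a PH over PC ratio of 3.70 at its 3' probe set (276 and 1021) and of 3.44 at its middle one (75.3 and 259). At the 3' probe set of ubiquitin the ratio was 1.33, from 3025 and 4015, while its 5' one stood at 4033 and 4046 and its middle one at 3294 and 3203. Of the other wheat controls, 18S rRNA stood at 6793 and 7258 and the middle actin probe set at 38.3 and 23.2.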

How the results depend on the processing

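At 3-fold, 1257 probe sets were higher and 1651 lower, and 33 and 64 genes with a symbol. With the floor at the 75th percentile (53.6), 1958 and 2071 probe sets passed 2-fold, of fewer measured (17397), and without the suffixes for several transcripts 2049 were lower, of 22849. Median scaling and quantile normalization kept each gene compared on its side of 2-fold, while the methyl transfer median, -1.02, came inside it at -0.99 and -0.95, and at -0.98 with the floor as a pseudocount. The floor of 53.6 also took PCS1 (0.41), avnla (0.44), wcH2B-6 (-0.34), Tubb5 (-0.92) and LOC100049032 (-0.55) inside 2-fold, since one array then lay at the floor. With the 25th percentile (4.2), Serpin-Z2A (1.85) and THI1.1 (1.64) passed. LOC543342 turned from 1.06 to -0.75 with the floor at the 75th percentile, where another probe set became its brightest, and to -0.77 as the mean of its probe sets; that mean also took RPS29 to -0.73, CAT1 to -1.04 and TSA to -1.06. The floor as a pseudocount gave wcH2B-6 -0.86 and LOC543342 0.86. The methyl transfer median turned to 0.47 without the suffixes, with 3 of 6 genes left. The tubulin median, -1.51, was -0.92 with the floor at 53.6 and -1.12 as the mean over probe sets. No paired analysis was possible because there is 1 array per group. Values at the floor are bounds only.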
